A study of Mus musculus with 13 samples.

Results

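Cycling cells of the mouse small intestinal crypt were taken from 11 single-cell libraries. They comprised 284 of the 780 cells kept in those libraries, while 892 cells were kept in the whole series of 13 libraries. A cell was kept when its transcripts, without spike-ins, summed to at least 3000. It was called cycling when Mki67, Top2a, Ube2c, Ccna2, Cdk1, Birc5, Cenpa and Cdca3 together made up at least 8 of every 10000 of its transcripts. Cells with 5% or more of their transcripts from Defa symbols (the defensins of Paneth cells), Gm14851 and Gm15284 were left out of the cycling class. The class is thus a range of a score and not a cell type, and the 496 remaining kept cells are called other cells here.

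All mice carried Lgr5-CreERT2 on C57Bl6/J and had been bred to Rosa26LSL-YFP reporter mice. In this design the Cre is driven by the stem cell gene Lgr5, so that tamoxifen turns on YFP in Lgr5+ cells and in all of their later progeny. YFP+ cells of the small intestine were sorted 5 days after tamoxifen (5 libraries) or 8 weeks after it. At 8 weeks there were 3 libraries of traced cells in the CD24+ fraction, 1 library of traced cells with no CD24 gate named (called ungated), and 2 libraries of non-traced CD24+ control cells. Ages, sexes and the number of mice behind a library were not given in the sources used here. Nothing said that libraries of a group came from separate mice, so p-values measure the spread between libraries, which may be technical. Each library was a plate of 96 cell barcodes read by CEL-seq, a method that counts transcripts by molecular barcodes, and the same 96 barcodes were used in every library.

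Crypt base stem cells marked by Lgr5 divide and give rise to transit-amplifying cells, which divide several more times while they commit. Notch signalling holds dividing progenitors in the absorptive lineage, and release from Notch lets Atoh1 drive secretory fates (goblet, Paneth, enteroendocrine and tuft cells), whose mature forms no longer divide. Genes of DNA replication are transcribed around the start of S phase under E2F factors. Genes of mitosis are transcribed later, in G2 and M phase, largely under the DREAM and MuvB complexes and FOXM1, and the rule genes belong to this late group. CD24 is a surface protein that is high on Paneth, enteroendocrine and tuft cells and lower on stem cells, so a CD24+ sort takes secretory cells preferentially.

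The libraries held 646976 to 1385266 transcripts without spike-ins. Spike-ins made up 1.31% to 8.25% of the total with them. One stretch of a plate stood apart. Barcodes 49 to 96 of 5-day replicate 4 held 41 kept cells, of which 34 were cycling, and their profiles were nearly alike. After thinning each cell to 3000 transcripts, the median variance over genes divided by the mean was 0.984 in these 41 cells, close to the value of 1 that random draws from 1 common profile have. In all other plate stretches this ratio lay between 1.24 and 1.84. The list of goblet genes took at least 100 of every 10000 transcripts in 41 of 41 cells and at most 213, while 1 to 13 cells of each other stretch reached 100. Without them 250 cycling cells remained. The cause was not tested. Several shares, depths and counts of calls below are given with and without these cells. Levels in CPM, marker counts per cell and rank correlations include them. The 34 cycling cells of this stretch are among the 190 at 5 days and may not count as independent cells.

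**Figure D1:**
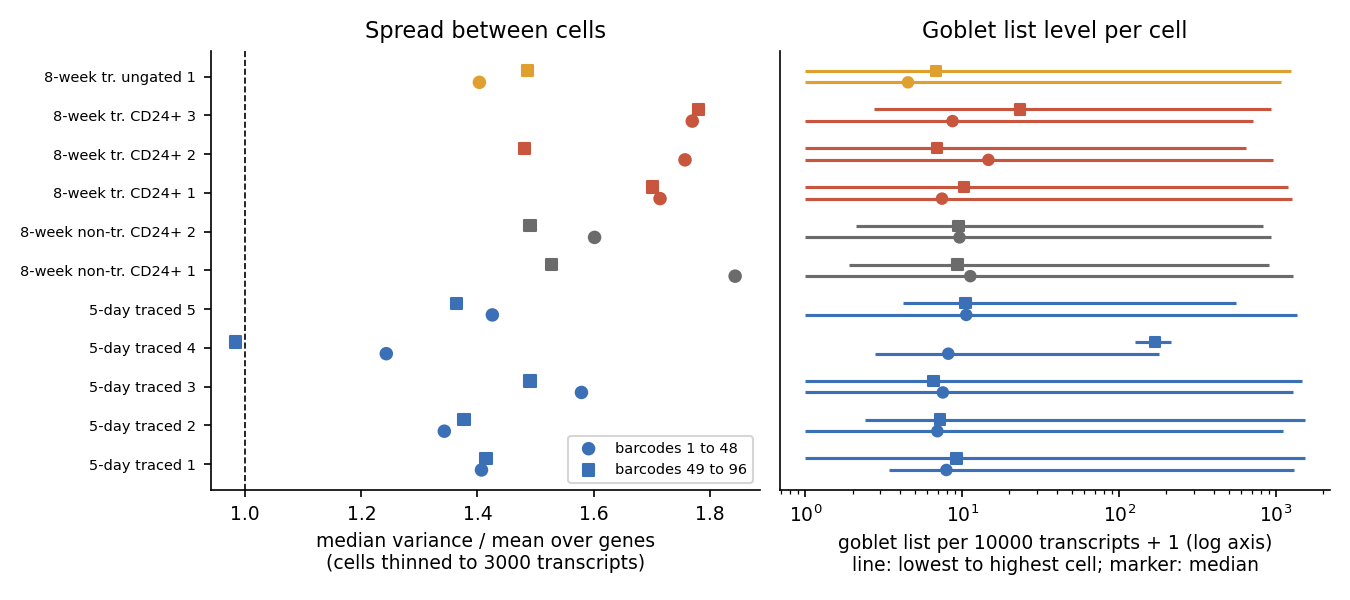
Spread between cells (left, median over genes of variance divided by mean after thinning to 3000 transcripts) and goblet list level per cell (right, per 10000 transcripts plus 1, log axis, lowest to highest cell with the median) for barcodes 1 to 48 (circles) and 49 to 96 (squares) of each library. Barcodes 49 to 96 of 5-day replicate 4 lie at 0.984 on the left and form a narrow band between 100 and 213 on the right.

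The cells were chosen by the summed level of the 8 rule genes, and these values are given first, as a description. Mki67, the proliferation antigen, was at 405, 353, 358, 272 and 326 CPM (transcripts per 1000000, over the summed transcripts of the class without spike-ins) in the cycling cells of 5-day replicates 1 to 5, and at 46.1 to 85.4 CPM in the other cells. In the 8-week traced CD24+ replicates 1 to 3 it was at 389.6, 516 and 432 CPM, and in their other cells at 13.9 to 41 CPM; in the ungated library it was at 435 and 27.1 CPM. The median score of cycling cells was 13.2 to 30.1 per 10000 in the 5-day libraries, lowest in replicate 4, and 21.7 to 38.5 in the 8-week traced CD24+ libraries. A cycling cell had transcripts of a median of 6 to 8 of the 8 rule genes in every library with 12 or more such cells. Few cycling cells sat just above the threshold outside replicate 4, while cells just below it were present in each 5-day replicate. Scores of 8 to 10 were held by 1, 3, 0, 7 and 1 cycling cells of the 5-day replicates, and scores of 6 to 8 by 3, 3, 6, 4 and 1 cells just outside. In the 8-week traced CD24+ replicates these were 3, 0 and 1 cycling cells and 3, 1 and 1 cells outside. The ungated library had 2 and 6.

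The label was checked against the markers. Hmgb2, a chromatin protein of proliferating cells that the rule did not use, had a transcript in 188 of 190 cycling cells at 5 days and in 52 of 53 in the 8-week traced CD24+ libraries. In cells thinned to 3000 transcripts it was seen in 87.4% of cycling and 35.9% of other cells at 5 days, and in 96.2% and 27.4% in the 8-week traced CD24+ libraries. The leukocyte gene Ptprc had no transcript in the 190 and the 53 cycling cells. At 5 days the 142 other cells had none either, so this separates no classes there, and 0 of 190 allows up to 1.58% of cells with a detected transcript, which is no limit on cells that express the gene. The 26-gene leukocyte list had a median of 0 in the cycling cells of all 9 traced libraries, and 152 of 190 cycling cells at 5 days had no transcript of it. The list medians for goblet cells were 2.22 to 159 per 10000 in cycling cells at 5 days, highest in replicate 4, and 3.23 to 5.24 in the 8-week traced CD24+ libraries. In the 2 non-traced CD24+ libraries, with 8 cycling cells in all, they were 5.71 and 552. No doublet caller was run, and cells above 2.5 times their library's median depth were left out in an alternative.

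The rule genes are late genes, so a lead of mitotic over replication genes in the chosen cells is set by the rule, and the values are a description. The 94 genes listed for mitosis and G2/M exceeded the 69 genes listed for DNA replication and S phase in 34 of 37, 31 of 34, 27 of 27, 45 of 54 and 32 of 38 thinned cycling cells of the 5-day replicates. In the 8-week traced CD24+ replicates this held for 24 of 28, 13 of 13 and 9 of 12 cells. Across cycling cells of 1 library, the score and the mitotic list had Spearman's rho of 0.55 to 0.83, while the score and the replication list had rho of -0.26 to 0.26. Stem cell and enterocyte lists, which the rule did not use, had rho of -0.59 to -0.26 in the 5-day libraries and -0.46 in the ungated 8-week library, but -0.18 to -0.03 in the 3 traced CD24+ libraries. These coefficients describe 12 to 54 cells of 1 plate each, in which both measures share depth and total.

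Promoters of the late group often, but not always, hold certain letters that the rule did not use. Below, 5 stretches are shown, from RefSeq on build GRCm38.p6. They run from 160 bases before to 20 bases from the annotated start, 5′ to 3′ on the gene's strand. Cdk1 (chr10:69352893-69353072, minus strand) and Ube2c (chr2:164769769-164769948, plus strand) are rule genes, and Cdc20 (chr4:118437324-118437503, minus strand) and Ccnb1 (chr13:100786467-100786646, minus strand) are mitotic genes that were high in the same cells. Mcm6 (chr1:128359686-128359865, minus strand) is a replication gene whose levels overlapped between cycling and other cells at 5 days. Capitals mark matches on either strand to TTTGAA (the letters of the cell cycle homology region, read TTCAAA on the other strand), CCAAT (read ATTGG) and TTTGGCGC (an E2F-like site).
Cdk1: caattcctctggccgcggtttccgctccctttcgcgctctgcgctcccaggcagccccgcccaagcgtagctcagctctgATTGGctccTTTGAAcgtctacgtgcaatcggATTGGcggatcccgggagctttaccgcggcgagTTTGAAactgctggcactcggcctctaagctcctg
Ube2c: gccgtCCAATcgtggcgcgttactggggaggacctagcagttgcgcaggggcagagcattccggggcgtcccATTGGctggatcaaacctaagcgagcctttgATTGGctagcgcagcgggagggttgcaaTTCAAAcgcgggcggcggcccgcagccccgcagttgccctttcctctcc
Cdc20: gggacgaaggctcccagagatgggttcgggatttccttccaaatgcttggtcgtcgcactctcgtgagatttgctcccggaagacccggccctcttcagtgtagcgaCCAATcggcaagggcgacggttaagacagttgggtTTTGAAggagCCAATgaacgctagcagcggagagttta
Ccnb1: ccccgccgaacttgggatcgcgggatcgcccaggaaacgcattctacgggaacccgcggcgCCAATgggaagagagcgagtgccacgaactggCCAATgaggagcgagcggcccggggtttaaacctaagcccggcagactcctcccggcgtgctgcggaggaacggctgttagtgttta
Mcm6: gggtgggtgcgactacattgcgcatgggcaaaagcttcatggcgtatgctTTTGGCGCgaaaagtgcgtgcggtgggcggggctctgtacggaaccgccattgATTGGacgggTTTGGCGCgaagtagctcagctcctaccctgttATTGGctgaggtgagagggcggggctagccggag
TTTGAA was found in the 300-base promoter windows of 6 of the 7 matched rule genes (85.7%), 43 of 76 mitotic genes (56.6%), 8 of 51 replication genes (15.7%), 1 of 17 stem cell genes (5.88%) and 20.2% of all 27025 genes in the table. CCAAT was present in 85.7%, 67.1%, 64.7%, 52.9% and 41.1% of the same sets. The letters TTTGGCGC were in 0%, 5.26%, 15.7%, 0% and 0.585%, and TTCCCGCC in 0%, 3.95%, 19.6%, 0% and 2.52%. The Ccnb1 stretch printed above has no TTTGAA match, and CCAAT was nearly as frequent in replication as in mitotic genes. A match describes letters in a window and not a bound site.

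Cycling cells made up a larger share of kept cells at 5 days than in the 8-week traced CD24+ libraries. The shares were 50%, 50.7%, 42.9%, 79.4% and 63.3% in 5-day replicates 1 to 5 and 32.2%, 20% and 17.4% in 8-week traced CD24+ replicates 1 to 3. The groups did not overlap: every 5-day library was above every 8-week traced CD24+ library. The means were 57.3% ± 14.4 (SD, n = 5) and 23.2% ± 7.90 (SD, n = 3), a difference of -34.1 percentage points (exact permutation test, two-sided, p = 0.0179, the smallest that 3 against 5 allows; 0.0357 after Benjamini-Hochberg adjustment over 2 share comparisons). With the rule applied to cells thinned to 3000 transcripts the shares were 49.7% ± 7.04 and 23.2% ± 7.90 (adjusted p = 0.0357 by the same permutation test), and without barcodes 49 to 96 of replicate 4 the 5-day mean was 56.2% ± 12.4.

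The CD24 gate differed between these groups and cannot be told apart from time in them. Xist and Y-linked transcripts, given below, separated the 5-day from the 8-week libraries. The sex of the mice thus cannot be told apart from time either, nor can the sequencing run, which was not given per library. At 5 days, where no CD24 gate was named, Cd24a (the gene of that protein) was at 408, 323, 365, 328 and 357 CPM in cycling and 469, 542, 798, 562 and 571 CPM in other cells, lower in cycling cells of 5 of 5 libraries (log2 -0.91 ± 0.14 SE, adjusted p = 0.000828, edgeR). That call was lost when cells with 5% or more Defa transcripts were taken out of the other cells (log2 -0.32, adjusted p = 0.34), in thinned cells (log2 -0.30, adjusted p = 0.492) and without the cells above 2.5 times the median depth (log2 -0.51, adjusted p = 0.294). The ungated 8-week library had 33 cycling cells of 80, a share of 41.25% with an exact Clopper-Pearson 95% interval of 30.4% to 52.8%, which covers counting error only. It lay between the highest traced CD24+ library and the lowest 5-day library. Non-traced CD24+ cells at 8 weeks were cycling in 2 of 84 and 6 of 63 cells, or 2.38% and 9.52%. Both values were below the 3 traced CD24+ libraries. The difference of 17.2 points between 23.2% ± 7.90 (n = 3) and 5.95% ± 5.05 (n = 2) had an exact permutation p of 0.1, the smallest this design allows, so it could not pass 0.05.

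**Figure D2:**
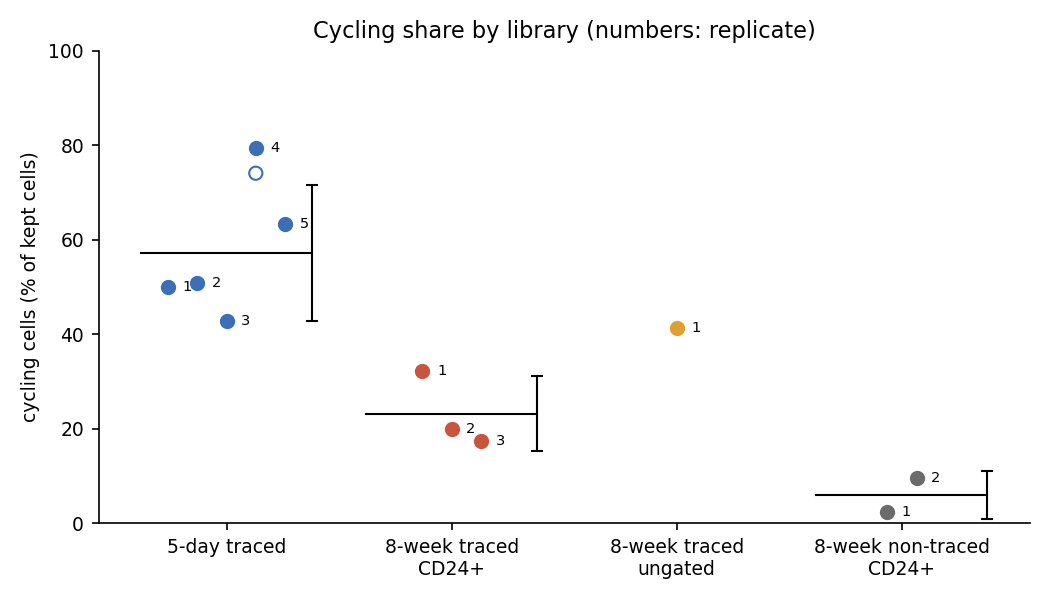
Share of kept cells that were cycling (vertical axis, %) in each library, by group, with replicate numbers, the group mean (line) and SD (bar). The 5-day libraries lie at 42.9% to 79.4%, above the 8-week traced CD24+ libraries at 17.4% to 32.2%; the open circle is replicate 4 without barcodes 49 to 96, at 74.1%.

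Cycling cells had higher median transcript numbers than other cells of the same plate in each library with 3 or more cycling cells, in a design that could not pass 0.05. Non-traced CD24+ replicate 1, with 2 cycling cells, had medians of 10347 for cycling and 10481 for other cells and was not tested. At 5 days the median per cycling cell was 9025, 9484, 9042, 9379 and 9356 transcripts in replicates 1 to 5, and the median per other cell was 7598, 7128, 7665, 8552 and 5031. In the 8-week traced CD24+ replicates the medians were 17699, 15562 and 13210 for cycling and 11142, 6839 and 8305 for other cells. All 5 libraries with 3 or more cycling cells lay in this direction at each time. The geometric mean ratio was 1.31 at 5 days and 1.74 at 8 weeks (exact sign-flip permutation test, p = 0.0625 at each time, n = 5, the smallest 5 libraries allow). Without barcodes 49 to 96 of replicate 4 the 5-day ratio was 1.27 with 4 of 5 libraries higher. With cells of at least 5000 transcripts it was 1.12 with 3 of 5 higher (permutation p = 0.25, n = 5), and with a rule threshold of 4 per 10000 it was 1.29 with 4 of 5 higher. Against non-cycling Lgr5+ cells the ratio was 1.12 with 3 of 5 libraries higher at 5 days (permutation p = 0.75, n = 5) and 1.66 with 5 of 5 at 8 weeks. Comparisons of gene levels were therefore also run on thinned cells.

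At 5 days, the summed cycling cells were richer than their plate mates in genes of mitosis and chromatin and poorer in enterocyte genes. Of 85 tested mitotic genes, 65 were called higher and 0 lower in cycling cells, beside 5.76% of all genes called, that is 2.52% called higher and 3.24% called lower of all 6749 genes tested (170 and 219 genes). The mitotic genes go with the rule genes and their count is a description. Cells with 5% or more Defa transcripts (Defa-high) were kept out of the cycling class alone, so part of the lower calls was set by the rule. Of 12 Paneth list genes tested, 12 were called lower. Without Defa-high other cells there were 345 calls, of which 255 were among the 389. Cdc20, the activator of the anaphase-promoting complex, was at 189, 118, 166, 123 and 142 CPM in cycling and 13.6, 20, 2.90, 28.5 and 6.27 CPM in other cells. Ccnb1, the mitotic cyclin, was at 147 ± 51.2 and 26.5 ± 11.3 CPM (SD, n = 5). In both genes every cycling value lay above every other-cell value.

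The replication list behaved differently at 5 days. Of 60 tested genes 6 were called higher (Esco2, Asf1b, Rrm2, E2f8, Tk1 and Rrm1; 13 of 59 without barcodes 49 to 96 of replicate 4, and 2 of 22 in thinned cells), and the list's median log2 difference was 0.40 against 1.90 for the mitotic list and 0.0017 over all genes. Pcna, the replication clamp, was at 357, 334, 284, 295 and 373 CPM in cycling and 209, 288, 183, 206 and 282 CPM in other cells, which overlapped (log2 0.30 ± 0.13 SE). Mcm6, a subunit of the replicative helicase whose promoter is printed above, was at 158 ± 7.93 CPM in cycling and 150.3 ± 36.4 CPM in other cells (SD, n = 5), and these overlapped too. Of 25 tested chromatin genes, 15 were called higher (9 by DESeq2). Hmgb2 was at 847, 825, 882, 659 and 770.2 CPM against 176, 265, 200.2, 377 and 144 CPM.

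Enterocyte genes were lower in the summed cycling cells at 5 days. Of 29 enterocyte genes tested, 24 fell and 0 rose, with a list median log2 of -1.22 (13 fell by DESeq2, and 25 fell by edgeR without barcodes 49 to 96 of replicate 4). Per cell the list differed less: its medians were 56.7, 36.4, 31.5, 89.8 and 49.8 per 10000 in cycling and 79, 47.5, 32.6, 85.7 and 65.6 in other cells, while the highest single other cells of replicates 1, 2, 3 and 5 were at 1226, 1153, 1284 and 558, against 160 to 340 in cycling cells of all 5. Fabp1, the fatty acid binding protein of enterocytes, was at 362, 313, 185, 887 and 277 CPM in cycling and 1781, 1164, 1294, 597 and 1191 CPM in other cells (log2 -1.94 ± 0.32 SE, adjusted p = 0.00164, edgeR). It was lower in 4 of 5 libraries and higher in replicate 4. Rbp2, which carries retinol in enterocytes, likewise was lower in 4 of 5 (log2 -1.78, adjusted p = 0.00372). Of 14 goblet genes 4 fell, among them Spink4, at 1306 ± 955 CPM in cycling and 3578 ± 722 CPM in other cells. The rule keeps Defa-high cells out of the cycling class alone, and with them taken out of the other cells too 0 of 14 goblet genes were called lower (Spink4 log2 -1.20, adjusted p = 0.271), while DESeq2 called 2. Of 14 enteroendocrine genes 2 fell and 1 rose. Reg4, made by secretory cells, was at 32, 66.8, 0, 181 and 77.7 CPM in cycling against 447, 825, 1117, 797 and 1028 CPM in other cells. Btg2, an antiproliferative immediate early gene, fell by 1.5 on the log2 scale (adjusted p = 0.000298, edgeR, lower in 5 of 5). It missed the threshold in 2 of 17 alternatives, and its log2 difference was as small as -0.76. Of 17 immediate early genes 5 fell, but 1 of 16 without Defa-high other cells and 1 of 14 in thinned cells.

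Of 21 stem cell genes tested at 5 days, 0 rose and 2 fell in cycling cells, Ephb3 and Rgmb. Lgr5 was at 66.6, 34.6, 44.3, 70.3 and 51.1 CPM in cycling and 86.8, 59.9, 66.7, 78.2 and 81.5 CPM in other cells, with the lower value in cycling cells of each library, but it did not pass the threshold (log2 -0.70 ± 0.20, adjusted p = 0.0535). Ephb3, a sorting receptor of the crypt, had an adjusted p of 0.0434 and missed the threshold in 10 of its 16 alternatives, as did Rgmb. Nrarp, a Notch target and feedback gene, was at 53.3, 71.4, 48, 40.4 and 64.4 CPM in cycling and 24.4, 20, 23.2, 35.6 and 18.8 CPM in other cells, with no overlap (log2 1.03 ± 0.28 SE, adjusted p = 0.0414), and it missed the threshold in 8 of 16 alternatives, with adjusted p of up to 0.494. The number of calls rested on single libraries: it was 389 in all, 204 without replicate 1, 234 without replicate 3, 222 without replicate 5, 545 without replicate 4, and 552 without barcodes 49 to 96 of replicate 4.

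**Figure D3:**
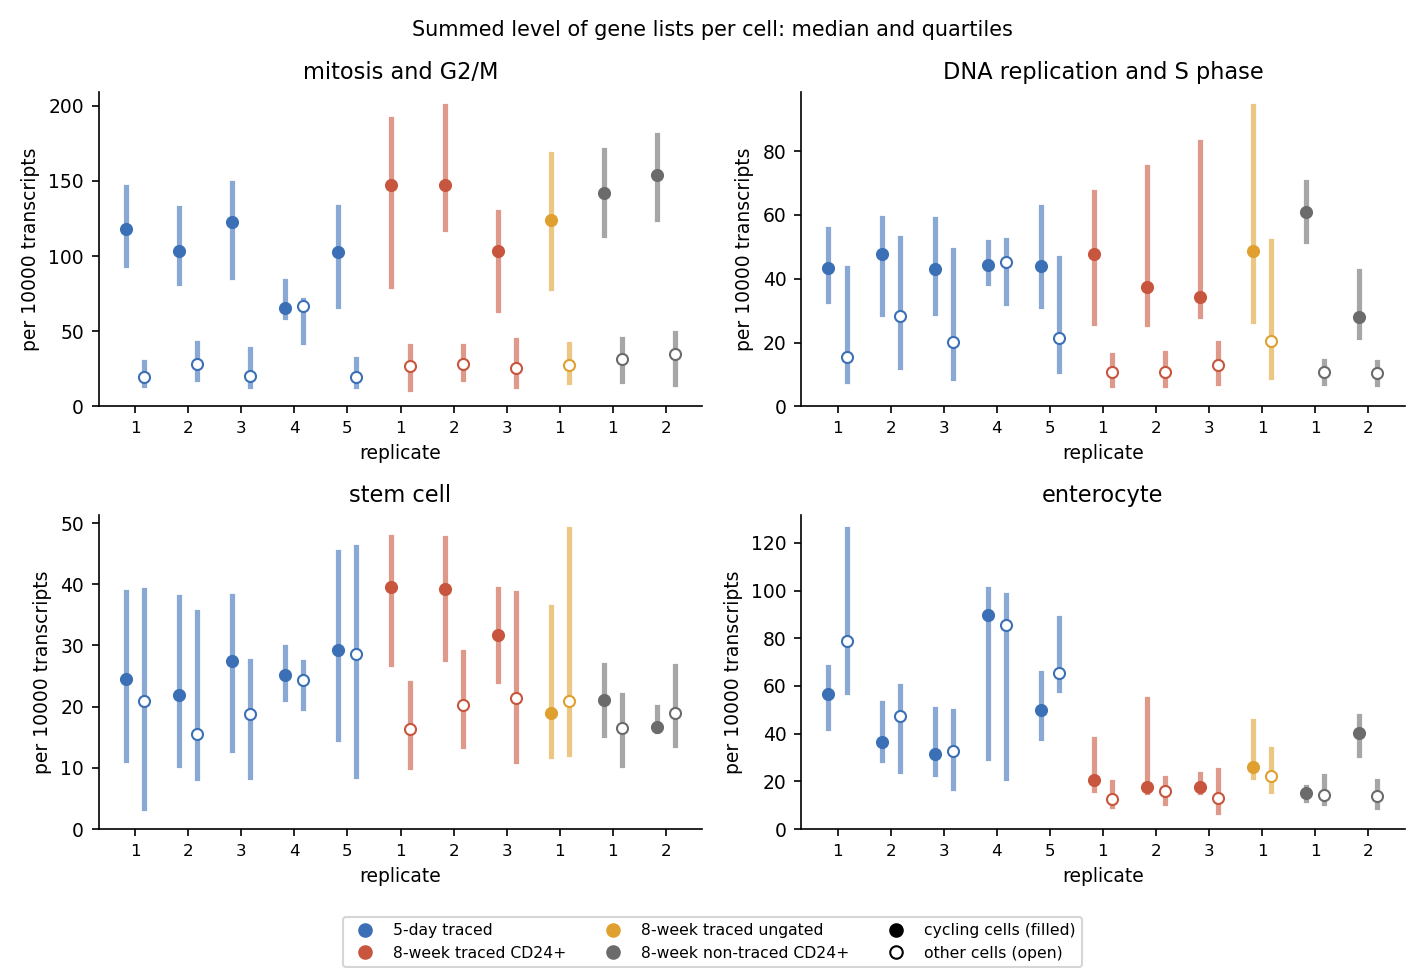
Summed level of 4 gene lists per cell (vertical axes, per 10000 transcripts; points are medians and bars are quartiles over cells) in cycling (filled) and other (open) cells of each library. Mitotic genes have library medians of 65.5 to 122 in 5-day cycling cells against 19.3 to 67.1 in other cells. The stem cell list is higher in cycling cells of the 8-week traced CD24+ libraries at 31.7 to 39.5 against 16.4 to 21.5, but not of the ungated library (19 against 21), and the enterocyte list is lower in both classes of the 8-week traced libraries than at 5 days.

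At 8 weeks the cycling cells were richer than other cells in replication as well as mitotic genes, and poorer in secretory genes. The comparison took the 3 traced CD24+ libraries, the ungated library and non-traced replicate 2, each with its own other cells; non-traced replicate 1 had 2 cycling cells and was left out. Of all 8230 genes tested 12.2% were called higher (1007) and 13.9% lower (1141). Part of the lower calls was again set by the rule, and 12 of 12 Paneth list genes tested fell. Without Defa-high other cells there were 1825 calls, of which 1687 were among the 2148. Of 89 mitotic genes 86 were called higher, and of 67 replication genes 50 (34 by DESeq2, 13 of 33 in thinned cells), which go with the rule and are a description. Cdc20 was at 249 ± 82.1 CPM in cycling and 6.32 ± 5.35 CPM in other cells (SD, n = 5). Kif18b, a mitotic kinesin, had no transcript in any other cell of these libraries and was at least 27.5-fold higher in cycling cells (floor of 3 transcripts over the group). Mcm6 was at 173, 138, 159, 226 and 123 CPM against 61.5, 93, 75.8, 188 and 53.7 CPM, higher in each library.

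Secretory genes were low in the summed cycling cells of these 5 libraries. Per cell, the 2 non-traced CD24+ libraries, which include the one left out, differed widely with 8 cycling cells in all. Their medians in cycling cells were 5.71 and 552 per 10000 for the goblet list and 5.52 and 188 for the secretory progenitor list. In their other cells these medians were 8.39 to 10.4 and 9.53 to 12.9. Of 25 enteroendocrine genes 24 fell, of 17 goblet genes 14, of 15 tuft genes 13 and of 12 secretory progenitor genes 11, and in these 4 lists 0 rose. Atoh1, the switch gene of the secretory lineage, was at 15, 9.22, 62.6, 12 and 8.79 CPM in cycling and 78.1, 48.8, 93.5, 93 and 78 CPM in other cells (log2 -2.26 ± 0.31 SE, adjusted p = 9.66e-05). Neurog3, the enteroendocrine progenitor factor, was lower in 5 of 5 libraries (log2 -3.64). Scg2, a granule protein, had no transcript in the cycling cells of all 5 libraries and was at least 31.9-fold lower than in other cells. Dll1, a Notch ligand of secretory progenitors, was at 44.9, 41.5, 39.8, 19.2 and 8.79 CPM against 93.5, 58.1, 83.8, 110.5 and 34.7 CPM (adjusted p = 0.00054). Rgs13, a tuft cell gene, was at 0, 32.3, 45.5, 0 and 229 CPM against 384, 377, 301, 48.5 and 509.6 CPM. The other cells of the CD24+ libraries were themselves rich in such genes, with tuft list medians of 16 to 20.8 per 10000 in the traced and 104 to 120 in the non-traced libraries, against 4.16 in the ungated library.

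Single Notch targets, D-type cyclins and growth genes were higher in 8-week cycling cells. Of 9 Notch pathway genes 2 rose (Nrarp and Hes1) and 4 fell, Dll1 among them. Hes1, the Notch effector that represses Atoh1, was at 315, 286, 176, 216 and 141 CPM in cycling and 115, 102, 102, 142 and 58.9 CPM in other cells (log2 0.92 ± 0.16 SE, adjusted p = 0.000685), higher in 5 of 5. Ccnd1, which opens G1, was at 346 ± 80.1 and 142 ± 60.9 CPM (log2 1.08 ± 0.18). The inhibitor Cdkn1a was at 56.6, 148, 34.1, 36 and 211 CPM in cycling and 294, 558, 513, 153 and 286 CPM in other cells (log2 -2.25 ± 0.28 SE, adjusted p = 3.92e-05). Gadd45g, a growth arrest gene, fell by 3.24 on the log2 scale. Of 22 stem cell genes 5 rose (Olfm4, Axin2, Aqp4, Cdca7 and Rgmb) and 1 fell (Sox9) by edgeR, but 0 rose by DESeq2, 2 without Defa-high other cells and 2 of 13 in thinned cells. Per cell, the list was higher in cycling cells of the traced CD24+ libraries (31.7 to 39.5 per 10000 against 16.4 to 21.5), but not of the ungated library (19 against 21), and overlapped in the non-traced ones (16.6 to 21.1 against 16.6 to 18.9). Lgr5 was at 108 ± 40.2 and 103 ± 13.6 CPM and did not pass (adjusted p = 0.606). Of 21 enterocyte genes 5 rose, Reg1, Prap1, Dgat1 and Reg3b among them, and 5 fell (Sis, Krt20, Anpep, Fabp1 and Vil1; 2 of 12 fell in thinned cells). Of 33 ribosome biogenesis genes 13 rose, among them Dkc1 and Fbl of the nucleolar RNA-modifying complexes, but 6 rose by DESeq2 and 4 of 27 in thinned cells. Of 79 nuclear genes of oxidative phosphorylation 38 rose by edgeR, 5 by DESeq2, 23 of 78 without Defa-high other cells and 5 of 75 in thinned cells. Of 28 genes of protein folding in the endoplasmic reticulum 21 fell (median log2 -0.54), but 8 without Defa-high other cells (median -0.31), 11 by DESeq2 and 6 of 25 in thinned cells.

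Against non-cycling cells with an Lgr5 transcript the picture was narrower. There were 144 such cells in all, and Lgr5 itself is used to choose them. At 5 days 80 of 5152 genes (1.55%) were called higher and 14 (0.272%) lower in cycling cells, and 40 of the higher were among the 60 tested mitotic genes (6 of 14 in thinned cells). The lower genes held Lbh, a Wnt-linked transcription cofactor, at 37.3, 30, 29.5, 49.2 and 28.9 CPM in cycling against 225, 40.1, 144, 80.8 and 242 CPM (log2 -2.07 ± 0.37 SE, adjusted p = 0.00452). Gkn3, a marker of crypt base cells, was at 117, 62.2, 73.8, 93.1 and 95.4 CPM against 266, 120.2, 144, 189 and 277 CPM, lower in 5 of 5 (log2 -1.16, adjusted p = 0.0196). Lbh missed the threshold in 3 of 16 alternatives and Gkn3 in 6 of 15, where its log2 difference was as small as -0.36 (adjusted p = 0.861, rule threshold of 4). The count is thin: the Lgr5+ class had 4 to 10 cells a library, and 94 calls in all became 11 without replicate 1, 62 without replicate 3 and 50 without replicate 5. Without barcodes 49 to 96 of replicate 4, which then had too few cells and dropped out, there were 103.

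At 8 weeks 255 of 5391 genes (4.73%) were higher and 284 (5.27%) lower than in non-cycling Lgr5+ cells. The lower genes included 13 of 13 tuft genes tested. Dclk1, a tuft cell kinase, was at 1.66, 36.9, 125, 4.81 and 650.4 CPM in cycling and 912, 1043, 558, 152 and 1104 CPM in non-cycling Lgr5+ cells (log2 -3.37 ± 0.65 SE, adjusted p = 0.00404). In thinned cells it was seen in 48% of 50 non-cycling Lgr5+ cells of the traced CD24+ libraries, in 81.25% of 48 in the non-traced ones and in 2.94% of 34 at 5 days. The non-cycling Lgr5+ class of the CD24+ libraries thus held many cells with a tuft transcript. Sox9, a crypt and secretory lineage factor, was at 276 ± 107 CPM against 499 ± 88.9 CPM (log2 -0.95 ± 0.16), and Nkd1, a Wnt feedback gene, fell by 3.59 on the log2 scale. Ccnd2 was at 453, 415, 563, 548 and 422 CPM against 253, 163, 372, 385 and 199.9 CPM, with no overlap (log2 0.82 ± 0.16 SE, adjusted p = 0.00461). The 539 calls became 333 without traced CD24+ replicate 1 and 299 without traced CD24+ replicate 2.

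Whether the cycling-minus-other difference itself changed between 5 days and 8 weeks was tested as an interaction over the 5-day and the 3 traced CD24+ libraries, with each library as its own block. Of 7775 genes 2.28% were called, 1.63% higher (127) and 0.643% lower (50). Of 64 replication genes 3 were called higher and 0 lower (list median log2 0.86). Of 81 ribosomal protein genes 22 were called higher and 0 lower (list median log2 0.335). The libraries of both times did not overlap in this difference for 6.71% of genes in the higher and 4.22% in the lower direction. Here too, time cannot be told apart from the CD24 gate, the sex of the mice or the sequencing run. Prap1, a protein secreted by enterocytes and their progenitors, was at 767, 694, 627, 673 and 755 CPM in cycling and 1093, 722, 865, 512 and 984 CPM in other cells at 5 days, and at 313, 355 and 478 CPM against 89.6, 53.5 and 88.6 CPM at 8 weeks. With 5 CPM added to each level, the mean log2 difference over libraries was -0.20 at 5 days and 2.25 at 8 weeks (fitted change 2.42 ± 0.24, adjusted p = 6.65e-05), and it passed under all 20 alternatives run. Of 29 enterocyte genes 7 were called higher and 0 lower in the interaction (5 by DESeq2, 9 without barcodes 49 to 96 of 5-day replicate 4, and 11 of 28 without Defa-high other cells).

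In several of the named genes the level of the other cells differed between the times. Ccnd1 was at 173 CPM in cycling and 160.5 CPM in other cells at 5 days, and at 316 and 131 CPM at 8 weeks (means over libraries, change 1.10 ± 0.21, adjusted p = 0.0154). Cdkn1a stayed low in cycling cells, 53.9 and 79.4 CPM, while other cells were at 72.6 CPM at 5 days and 455 CPM at 8 weeks (change -2.14 ± 0.39, adjusted p = 0.0102). Hes1 was at 169 and 138 CPM at 5 days and at 259 and 106 CPM at 8 weeks (change 0.92, adjusted p = 0.0371). Olfm4, a marker of Lgr5+ cells, was at 35.4 and 49.7 CPM and then 43 and 18.5 CPM (change 1.82, adjusted p = 0.0402). Hes1, Olfm4, Mcm5 and Rrm1 each missed the threshold in 12 or 13 of their 19 or 20 alternatives, Ccnd1 in 5 of 20 and Cdkn1a in 2 of 20. The make-up of the other cells differed: their enterocyte list medians were 32.6 to 85.7 per 10000 at 5 days and 12.7 to 16.1 at 8 weeks, and its part in the result was not tested. The 177 calls became 28 with DESeq2, 98 without 5-day replicate 1, 66 without 5-day replicate 2, 50 without traced CD24+ replicate 1, 24 without traced CD24+ replicate 2, and 144 without barcodes 49 to 96 of 5-day replicate 4.

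Cycling cells of the 3 8-week traced CD24+ libraries were then set directly against those of the 5-day libraries. Of 6660 genes tested, 7.04% were higher (469) and 8.56% lower (570) at 8 weeks. The groups did not overlap for 14% of genes in the higher and 8.98% in the lower direction, and the remarks on overlap below are read beside these shares. Time cannot be told apart from the CD24 gate, from the sequencing run, which was not given per library, or from the sex of the mice here. Xist, the RNA that coats the inactive X, had no transcript in the 5-day cycling cells and was at 127, 217 and 142 CPM at 8 weeks, with 125 CPM in the ungated 8-week library (at least 104-fold higher, floor of 3 transcripts over the group). The Y-linked genes Eif2s3y and Ddx3y were at 33.2 to 53.3 and 20 to 46.1 CPM at 5 days, with no transcript at 8 weeks, the ungated library included. The ungated library is a single one with no test, and its value is given beside the genes whose levels are printed.

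Few mitotic and replication genes were called between the times. Of 88 mitotic genes 3 rose (Cenpe, Kif11 and Smc4) and 0 fell. Of 62 replication genes 2 rose and 2 fell, and these shares were below the background in both directions. Cells of both times passed the same cut on the rule genes, and the mitotic genes go with these. Their likeness between the times is thus partly set by the rule, and the counts are a description. Without barcodes 49 to 96 of 5-day replicate 4, 1 of 87 mitotic genes rose. Cenpe, a kinetochore motor, was at 66.6, 27.6, 40.6, 33.4 and 40 CPM at 5 days and 88.2, 189 and 73.9 CPM at 8 weeks, with 101 CPM in the ungated library (log2 1.35 ± 0.32 SE, adjusted p = 0.00749). Pola2, of the polymerase that primes replication, was at 50.6, 32.3, 44.3, 36.9 and 28.9 CPM and then 88.2, 92.2 and 91 CPM, with 103 CPM ungated (log2 1.13 ± 0.23). Rfc3, a clamp loader subunit, was lower (78.2 ± 22.1 CPM at 5 days and 43.1 ± 7.41 CPM at 8 weeks, 48.1 CPM ungated, log2 -1.04 ± 0.28), and missed the threshold in 4 of 18 alternatives. Kif11 (156 CPM ungated) missed the threshold in 9 of 19 alternatives, and Tk1, lower at 8 weeks by edgeR (log2 -0.61, adjusted p = 0.0364), had the other sign after thinning and was at 211 CPM ungated, above the CD24+ libraries.

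Of 19 regulators of G1 tested 2 rose (Ccnd2 and Ccnd1) and 2 fell (Cdk4 and Tob1). Ccnd2 was at 141, 196, 229, 253 and 179.8 CPM in 5-day and 453, 415 and 563 CPM in 8-week cycling cells, with 548 CPM in the ungated library, and the groups did not overlap (log2 1.14 ± 0.18 SE, adjusted p = 0.000504). Ccnd1 was at 194, 138, 140.2, 197 and 198 CPM and then 228, 396 and 324 CPM, with 341 CPM ungated (log2 0.71 ± 0.20; 4 of 19 alternatives missed the threshold). Their partner kinase Cdk4 was lower, at 274, 323, 328, 341 and 264 CPM and then 148, 101 and 102 CPM, with 238 CPM ungated (log2 -1.43 ± 0.18 SE, adjusted p = 8.28e-05). Cdk4 was also lower in other cells, 182 to 279 CPM at 5 days and 70.9 to 108 CPM at 8 weeks. Tob1, an antiproliferative gene, fell by 1.53 on the log2 scale and was at 69.7 CPM ungated.

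Of 28 chromatin genes 6 rose and 1 fell, and 4 of 27 rose and 2 fell without barcodes 49 to 96 of 5-day replicate 4. Set, a histone chaperone, was at 405, 454, 406, 360.1 and 504 CPM at 5 days and 852, 977 and 893 CPM at 8 weeks, with 834 CPM ungated (log2 0.98 ± 0.13 SE, adjusted p = 0.000154). Hist1h2ao, a histone of the replication-dependent cluster whose members are near-identical in sequence and so uncertain in counting, was at 25.1 ± 16.5 CPM at 5 days and 110.2 ± 42.4 CPM at 8 weeks, with 118 CPM ungated. Hmgb2 was at 847, 825, 882, 659 and 770.2 CPM and then 1184, 1296 and 989 CPM, with 1336 CPM ungated (log2 0.44 ± 0.13 SE, adjusted p = 0.0286), and 6 of its 19 alternatives missed the threshold.

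**Figure D4:**
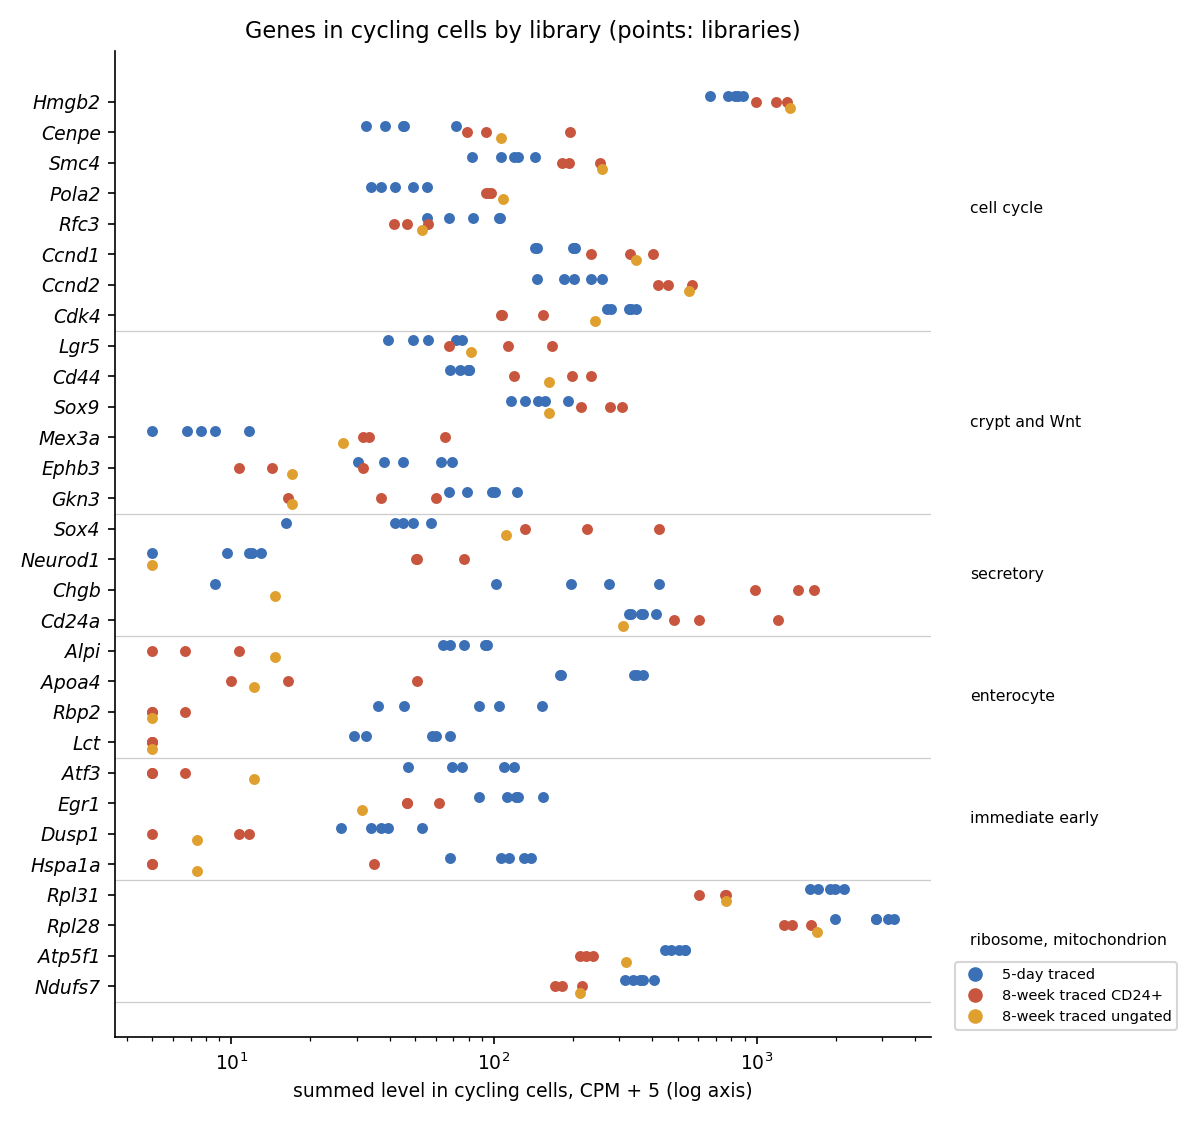
Levels of 30 genes in the summed cycling cells of each library (horizontal axis, CPM plus 5, log scale; each point is a library) for the 5-day, 8-week traced CD24+ and 8-week ungated groups. Ccnd2 lies at 415 to 563 CPM in the 8-week traced CD24+ libraries and at 141 to 253 CPM at 5 days, while Lct, Atf3 and Rbp2 sit at or near 0 CPM at 8 weeks.

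Wnt target and stem cell genes moved both ways. Of 12 Wnt targets 5 rose (Cd44, Ccnd2, Lgr5, Sox9 and Ccnd1) and 1 fell (Ephb3), with 1 of 6 higher in thinned cells, and of 21 stem cell genes 3 rose and 2 fell. Lgr5 was at 66.6, 34.6, 44.3, 70.3 and 51.1 CPM at 5 days and 108, 161 and 62.6 CPM at 8 weeks, with 76.9 CPM ungated. These overlapped at 8-week replicate 3 (log2 0.93 ± 0.28 SE, adjusted p = 0.0301), and 5 of 18 alternatives missed the threshold. Cd44, a hyaluronan receptor of crypt cells, was at 74.6, 69.1, 62.7, 75.5 and 75.5 CPM and then 228, 194 and 114 CPM, with 156 CPM ungated and no overlap (log2 1.26 ± 0.20 SE, adjusted p = 0.000535). In other cells Cd44 was at 52.2 to 81.5 CPM and 101 to 191 CPM. Mex3a, an RNA-binding protein of slowly cycling Lgr5+ cells, was at 0 to 6.66 CPM and then 26.6, 59.9 and 28.4 CPM, with 21.6 CPM ungated (log2 3.41 ± 0.62). Gkn3 was lower, at 117, 62.2, 73.8, 93.1 and 95.4 CPM and then 54.9, 32.3 and 11.4 CPM, with 12 CPM ungated (log2 -1.25 ± 0.32 SE, adjusted p = 0.0118).

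Of the secretory lists, 4 enteroendocrine genes and Sox4 were higher in the summed cycling cells of the CD24+ sort, and 0 of 12 goblet genes. Of 14 enteroendocrine genes tested 4 rose (Chga, Neurod1, Chgb and Tac1) and 1 fell (Sst); by DESeq2 1 rose, and without barcodes 49 to 96 of 5-day replicate 4 6 of 11 rose and 0 fell. Sst had no transcript in the ungated library. Per cell the enteroendocrine list had medians of 0 to 56.4 per 10000 at 5 days and 1.8 to 5.22 in the CD24+ libraries, less than the mean that Chgb alone had there, so the sums rest on the cells rich in it. Neurod1, an enteroendocrine transcription factor, was at 7.99, 4.61, 0, 7.03 and 6.66 CPM and then 71.6, 46.1 and 45.5 CPM, but at 0 in the ungated library (log2 3.18 ± 0.42 SE, adjusted p = 0.000128). Chgb, a granule protein, was at 418, 96.8, 3.69, 269 and 191 CPM and then 1430, 1641 and 978 CPM, with 9.61 CPM ungated and 2890 to 5207 CPM in the other cells of the CD24+ libraries. In the ungated library Chga was at 7.21 and Tac1 at 12 CPM, so all 4 lay within the 5-day range there. Sox4, a transcription factor and the 1 gene called of 9 on the secretory progenitor list, was at 40, 36.9, 44.3, 52.7 and 11.1 CPM and then 127, 419.6 and 222 CPM, with 106 CPM ungated (log2 2.59 ± 0.38 SE, adjusted p = 0.000262). Of 7 genes on the Paneth cell list tested 3 rose (Cd177, Itln1 and Lyz1) and 1 fell (Guca2b), and Zg16 alone of 12 goblet genes fell. Cd24a, the gene of the sorted protein, was at 356 ± 34 CPM and then 759 ± 387 CPM, and at 305 CPM ungated; the sort selects it, so it is no finding between these groups.

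Enterocyte genes were far lower in cycling cells at 8 weeks. Of 26 tested, 21 fell and 1 rose (Reg3g), with a median log2 of -2.23 beside -0.0053 over all genes. Without barcodes 49 to 96 of 5-day replicate 4, 18 of 25 fell (median log2 -1.86), and in thinned cells, where 15 were tested, 6 fell. Apoa4, an apolipoprotein of chylomicrons, was at 344, 175, 336, 365 and 173 CPM at 5 days and 4.99, 46.1 and 11.4 CPM at 8 weeks, with 7.21 CPM ungated (log2 -4.20 ± 0.49 SE, adjusted p = 4.15e-05). Alpi, the brush border phosphatase, was at 71.9, 87.6, 59, 63.2 and 88.8 CPM and then 1.66, 0 and 5.69 CPM, with 9.61 CPM ungated. Lct, lactase, was at 24.4 to 63.2 CPM and then had no transcript in all 4 traced 8-week libraries (at least 14.8-fold lower in the CD24+ libraries). In other cells Apoa4 was at 263 to 1039 CPM and then 0 to 4.65 CPM. Apoa4 was thus lower in cycling and in other cells, and also in the single library with no gate, which had 27.1 CPM in other cells. For the enterocyte list, the highest single cells of that library were at 579 (cycling) and 708 (other) per 10000. In the traced CD24+ libraries they were at most at 183 and 88.3.

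Immediate early genes were lower too, 7 of 15 with 0 higher (in thinned cells, where 6 were tested, 1 fell and 1 rose). Atf3, a stress-induced factor, was at 63.9, 104, 114, 70.3 and 42.2 CPM at 5 days and 1.66, 0 and 0 CPM at 8 weeks, with 7.21 CPM ungated (log2 -5.96 ± 0.67 SE, adjusted p = 2.85e-05). Egr1 was at 149, 82.9, 118, 116 and 107 CPM and then 41.6, 41.5 and 56.9 CPM, with 26.4 CPM ungated (log2 -1.45 ± 0.25). The heat shock gene Hspa1a was at 63.2 to 133 CPM and then 30, 0 and 0 CPM, with 2.40 CPM ungated. In other cells the levels differed likewise, and Atf3 was at 94.9 to 226 CPM in them at 5 days and 0 to 1.61 CPM at 8 weeks.

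Genes of the ribosome and of mitochondrial respiration were modestly lower in the 8-week traced CD24+ libraries. Of 81 ribosomal protein genes 41 fell and 0 rose (median log2 -0.34), and of 78 nuclear genes of oxidative phosphorylation 37 fell and 0 rose (median -0.45). In thinned cells 23 of 78 and 12 of 75 fell. Rpl31 was at 1984, 1592, 1712, 2150 and 1893 CPM and then 754, 756 and 597 CPM, with 762 CPM ungated (log2 -1.51 ± 0.14 SE, adjusted p = 3.76e-06). Atp5f1, of the ATP synthase, was at 442, 465, 528, 501 and 531 CPM and then 218, 207 and 233 CPM, with 312 CPM ungated (log2 -1.28 ± 0.15). In other cells Rpl31 was at 1358 to 2034 CPM and then 380.4 to 518 CPM, so it was lower there as well. Per cell, the ribosomal protein list had medians of 2200 to 2420 per 10000 in cycling cells at 5 days and 1900 to 2010 in the traced CD24+ libraries, with 1890 ungated, and of 1950 to 2410 and 1180 to 1270 in other cells. The oxidative phosphorylation list had medians of 450 to 495 per 10000 in cycling cells at 5 days and 374 to 400 in the traced CD24+ libraries, but 475 in the ungated 8-week library, inside the 5-day range. Ribosomal protein genes have many processed copies, among which reads may be split. Of 32 ribosome biogenesis genes 3 rose (1 by DESeq2) and 0 fell, among them Nop58, a nucleolar protein (109 ± 16.9 CPM at 5 days and 233 ± 11.3 CPM at 8 weeks, 226 CPM ungated).

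**Figure D5:**
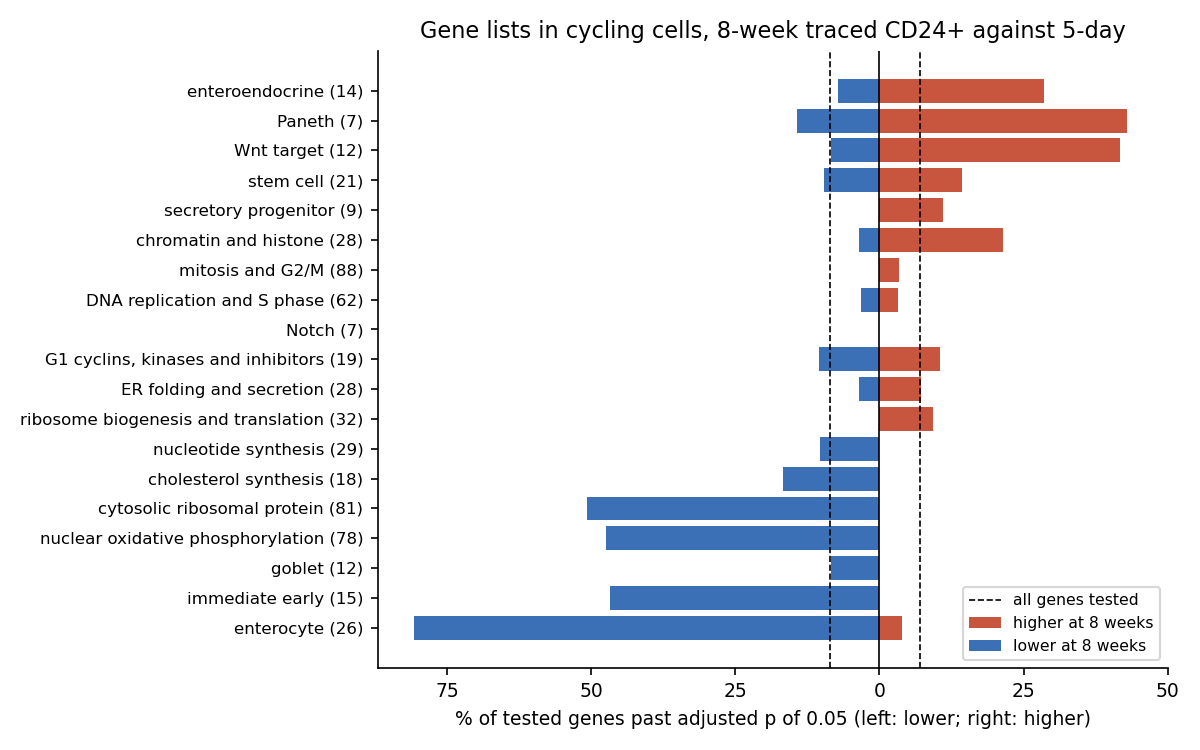
Share of tested genes of each list (number in brackets) called higher (right, red) or lower (left, blue) in cycling cells of the 8-week traced CD24+ libraries against 5-day cycling cells (horizontal axis, %), with dashed lines at 7.04% and 8.56% over all genes tested. Enterocyte, immediate early, ribosomal protein and oxidative phosphorylation genes extend to the left (21 of 26, 7 of 15, 41 of 81 and 37 of 78).

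The genes with the largest changes by the naming rule fell outside these lists in most cases. A230046K03Rik was at 18.6, 32.3, 22.1, 22.8 and 20 CPM and then 338, 318 and 324 CPM, with 257 CPM ungated (log2 3.69 ± 0.19 SE, adjusted p = 2.4e-09). Dusp22, a phosphatase, was at 2.22 to 9.22 CPM and then 86.6, 78.4 and 51.2 CPM, with 45.7 CPM ungated (log2 3.67 ± 0.37). Both were likewise higher in other cells, A230046K03Rik at 8.70 to 37.6 and then 166 to 195 CPM. Rorb, a nuclear receptor, was at 282, 104, 25.8, 12.3 and 153 CPM at 5 days, had no transcript in the 8-week traced CD24+ libraries (at least 36.9-fold lower) and was at 2.40 CPM ungated. Gm13315 was at 66.6 to 229 CPM and then likewise without a transcript, with 4.81 CPM ungated. The total of 1039 calls was 689 with DESeq2, 917 without barcodes 49 to 96 of 5-day replicate 4, and 709 to 997 on leaving out single libraries.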

How the data were processed

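Transcript tables of 13 single-cell CEL-seq libraries were used, of which 11 enter the comparisons. Per the labels' protocols, cells were sorted in Trizol and libraries were read on HiSeq2500 (50 bp) or NextSeq500 (75 bp) instruments. Per the submitters' processing notes, BWA 0.6.2-r126 and build mm10 were used; the counting and filtering steps were not given in the sources used here. The values deposited by the authors are expected counts of transcripts, and their form (whole numbers after undoing a correction for collisions among 256 molecular barcodes) was checked on the values; 145 of 3145332 values above 0 were at saturation. A combined table equalled 7 of the libraries over the genes they list, held 7334 further genes, and was not used in tests.

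Cells under 3000 transcripts (spike-ins left out) were dropped. Each library contributed 1 sum per cell class. These sums, as whole numbers, entered edgeR 4.0.16 (quasi-likelihood test, TMM scaling, filterByExpr, libraries as blocks for contrasts within a library) in R 4.3.3, with Benjamini-Hochberg adjusted p under 0.05; all adjusted p of genes come from it. The rule genes and Defa symbols stayed out of the counts of calls. Shares and depths were compared by exact permutation over libraries. Precision is set by the 2 to 54 cycling cells and 646976 to 1385266 transcripts a library; intervals cover counting error only. Genes named with full values were the largest called changes each way at a mean of 20 CPM or more, together with members of the lists. Members and lists were chosen with earlier results of these data known. The alternatives were DESeq2 1.42.0, other thresholds and filters, thinning, blocks and leaving out each library.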

Additional observations from a re-analysis of the deposited data

Results flagged for a closer look

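Single 5-day libraries stood far from the other 4 in 6 of 68 checks of group values, made with Dixon's criterion at the 95% level, which flags about 5% of groups by chance. Of these, 3 were in replicate 4, the library with the alike barcodes: the goblet list at a median of 159 per 10000 transcripts in cycling cells, the enteroendocrine list at 56.4 per 10000, and the hormone gene Sst at 501 CPM. The replication list of replicate 2 (47.7 per 10000), Hist1h2ao in replicate 1 (53.3 CPM) and the chaperone Hspa5 in replicate 5 (471 CPM) also stood apart.

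For 13 named genes the cycling-minus-other difference itself differed between 8-week traced CD24+ and 5-day libraries by the interaction test of edgeR. The change was positive for Reg1 (log2 5.02), Ccnb1 (3.38), Prap1 (2.42), Olfm4 (1.82), Rrm1 (1.41), Mcm5 (1.28), Ccnd1 (1.10) and Hes1 (0.92). It was negative for Scg2 (-7.05), Cck (-5.30), Cdkn1a (-2.14), Gadd45g (-1.98) and Cd24a (-1.15), which the 8-week gate selects. Prap1 passed under all alternatives run, but the threshold was missed in 13 of 20 for Rrm1, 12 of 20 for Mcm5 and Hes1, 12 of 19 for Olfm4, 10 of 20 for Cd24a, 9 of 20 for Reg1, 9 of 16 for Scg2, 8 of 20 for Cck, 6 of 20 for Ccnb1 and Gadd45g, 5 of 20 for Ccnd1 and 2 of 20 for Cdkn1a. Adjusted p ranged from 6.65e-05 for Prap1 to 0.0402 for Olfm4. The other cells differ in make-up between the times, and its part was not tested.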

How the results depend on the processing

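Counts of calls depended on the processing. Over the alternatives, 1880 values of single named genes kept direction and side of the threshold, and 279 kept direction but missed it. The sign turned in 1 value (Tk1 between the times, log2 0.0592 in thinned cells, adjusted p = 0.942, edgeR). These genes had been called in the main fit and the alternatives reuse the same libraries. A kept direction was therefore largely set in advance.

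Cycling against other cells at 5 days gave 389 calls, 178 with DESeq2, 612 with no filter on low counts and 149 in thinned cells, 552 without barcodes 49 to 96 of 5-day replicate 4 (chosen after seeing the data), and 204 to 545 on leaving out single libraries. At 8 weeks the 2148 calls became 1053 with DESeq2 and 687 in thinned cells, and 1444 to 2023 without single libraries.

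Against non-cycling Lgr5+ cells at 5 days the 94 calls became 57 with DESeq2, 55 with a rule threshold of 4, 38 without cells above 2.5 times the median depth, 39 in cells of 5000 or more transcripts, 218 with no filter, 19 in thinned cells, and 11 to 103 without single libraries. At 8 weeks the 539 calls became 239 with DESeq2, 869 with no filter, 308 with no replicate block and 174 in thinned cells (60 higher and 114 lower), and 299 to 492 without single libraries.

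The interaction gave 177 calls, 28 with DESeq2, 93 with a threshold of 4, 86 in cells of 5000 or more transcripts, 377 with no filter, 102 with no replicate block and 66 in thinned cells, and 24 to 218 without single libraries. Cycling cells between the times gave 1039 calls, 689 with DESeq2, 270 in thinned cells (139 higher and 131 lower), and 709 to 997 without single libraries.

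Between the times, a replicate block gave 805 calls. Deviations of same-numbered libraries had correlations over 6660 genes of -0.0102, -0.118 and -0.119, and those of differently numbered libraries -0.0207 to 0.126. With 3 libraries a time, this check cannot decide whether the numbers pair libraries.

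The share difference between 8-week traced CD24+ and 5-day libraries was -38.6 to -28.5 points without single libraries, with adjusted permutation p of 0.0571 to 0.190, where the smallest adjusted p these smaller designs allow is above 0.05. Traced minus non-traced CD24+ was 12.7 to 20.8 points. The log2 depth ratio was 0.258 to 0.448 at 5 days and 0.705 to 0.927 at 8 weeks without single libraries; with cells of 5000 or more transcripts it was 0.161 at 5 days, higher in 3 of 5.

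Limits: each group is a few plates, the 8-week comparisons rest on 12 to 33 cycling cells a library (6 in non-traced replicate 2), the ungated group is 1 library, and genes under about 20 CPM rest on few transcripts.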

Other observations

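The 3-week libraries were single and entered no comparison. Traced CD24+ cells at 3 weeks were cycling in 7 of 62 kept cells, 11.3% with an exact 95% interval of 4.66% to 21.9%. In the library labelled non-traced CD24+ at 3 weeks 18 of 50 cells were cycling, 36% with an interval of 22.9% to 50.8%. The name of that library in the combined table contains YFP, against its label, so its tracing state is uncertain and the order of these values is not read.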
